A study of Mus musculus with 28 samples.

Results

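The genes described are the cell cycle machinery that dividing cells use to copy their DNA and to divide, a set of 43 named genes measured in the JygMC(A) mouse model of mammary carcinoma. They comprise DNA replication genes (Mcm2 to Mcm7, Pcna, Rrm1 and Rrm2), genes of S phase entry and thymidylate synthesis (Ccne1, Ccne2, Cdc6 and Tyms) and genes of mitosis. The genes were listed by name and not by a measured value, though with earlier results of these data known. Of the 43 genes, 42 were read among 18193 genes on the array: 9 of replication, 4 of S phase entry and 29 of mitosis. Ccnb1 was not analysed here. Among the probe sets annotated to a gene alone, the brightest on average across the 26 tissue arrays stood for it. 31 of the 42 genes had several probe sets, up to 5. Levels are log2 signals, so a difference of 1.00 is a 2-fold difference, and levels were compared between samples and not between genes.

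RNA of whole tissue or cells was hybridised to 28 Affymetrix arrays. The 9 lung metastases (LungMets) were nodules taken 50 days, and the 11 primary mammary tumors (PT) were taken 30 days, after 50000 cells of the JygMC(A) line had been injected in the 4th gland of 8-week-old female Balb/C nude mice. Normal lung parenchyma (NL, 3 arrays) and normal mammary gland (NMG, 3 arrays) came from 3 healthy nude mice aged 6 to 8 weeks. An NL and an NMG array may therefore share a mouse, which the tests do not take into account. A cell line was also arrayed as 3D spheres (1 array) and as a monolayer culture (1 array), and the only line that the labels name is JygMC(A). All animals were athymic nude mice, which lack mature T cells but keep B and NK cells, and the tumors all derive from 1 cell line, which carried GFP and luciferase reporters. The labels name biological replicates without naming the animal. Tumor fragments for frozen blocks were collected from 8 mice. How many mice gave the LungMets and PT arrays is not known. Arrays may therefore share a mouse, and the p-values measure the spread between these arrays. The labels carry 4 dates, and NL and NMG each lie on a date of their own, so date and group cannot be told apart for either normal tissue.

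The median signal of the 28 arrays lay between 5.00 and 5.18. PT 5 correlated better with LungMets (r = 0.989) than with the other PT arrays (r = 0.968), and its lung epithelium markers averaged 11.50 against a PT median of 5.13. LungMets 9 correlated better with PT (r = 0.983) than with the other LungMets arrays (r = 0.963), and its lung epithelium markers, at 6.93, were the lowest of the LungMets. Results are therefore also given without both arrays. NMG 1 held lung epithelium markers at 8.13, against 5.86 in NMG 2 and 5.13 in NMG 3. In the cultured cells the 5 epithelium markers averaged 5.25 in spheres and 5.70 in monolayer, and 4 of them were lower in spheres. Epcam read 3.98 in spheres and 5.62 in monolayer, while Krt18 read 8.78 in spheres and 7.89 in monolayer.

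As background, a cell that enters S phase loads the Mcm2-7 helicase on replication origins with the help of Cdc6, fires it under cyclin E and Cdk2, and copies DNA with Pcna, the sliding clamp of the polymerases. Ribonucleotide reductase (Rrm1 and Rrm2) and thymidylate synthase (Tyms) supply the deoxynucleotides. In mitosis, Cdk1 with cyclin A2 or B2, Plk1 and the Aurora kinases drive spindle assembly, Bub1, Bub1b and Ttk hold the spindle checkpoint, and Cdc20 and Ube2c direct the anaphase-promoting complex to destroy cyclins and securin. Replication genes are induced in late G1 by E2F factors through E2F sites. Genes of G2 and mitosis are switched on later by the MuvB complex with B-Myb and Foxm1 through CHR elements, often together with CCAAT boxes bound by NF-Y, and the same CHR elements hold them off in resting cells. Proliferation in the adult is low in lung, while the mammary gland of the young mouse still holds dividing ductal cells.

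The promoters of the genes were searched for these elements. RefSeq promoters (GRCm38.p6, 250 bases before to 50 after the gene start) were found for 22 of the 29 mitosis genes, 8 of the 9 replication genes and 3 of the 4 S phase entry genes. The search covered both strands, for CHR elements (TTTGAA or TTCGAA), for CCAAT and for E2F elements (TTTCCCGC, TTTCGCGC, TTTGCCGC or TTTGGCGC). No listed element contains another, though matches that adjoin can share letters. A CHR element was found in 19 of the 22 mitosis promoters (86.4%), against 21.7% of all 27025 promoters. Among replication promoters it was found in 2 of 8 (25.0%). CCAAT was found in 19 of the mitosis promoters (86.4%) and in 8 of 8 replication promoters, against 41.1% of all promoters. An E2F element was found in 4 of 8 replication promoters (50.0%), those of Mcm3, Mcm5, Mcm6 and Mcm7, and in 1 of 22 mitosis promoters (4.55%), that of Cdk1, against 2.6% of all promoters. The mitosis promoters without a CHR match were those of Birc5, Cenpe and Nusap1. No promoter was matched for Dlgap5, Aurkb, Foxm1, Pbk, Kif20a, Tpx2, Ccna2, Mcm4 and Ccne2. A match is a run of letters and not a measured binding site.

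**Figure D1:**
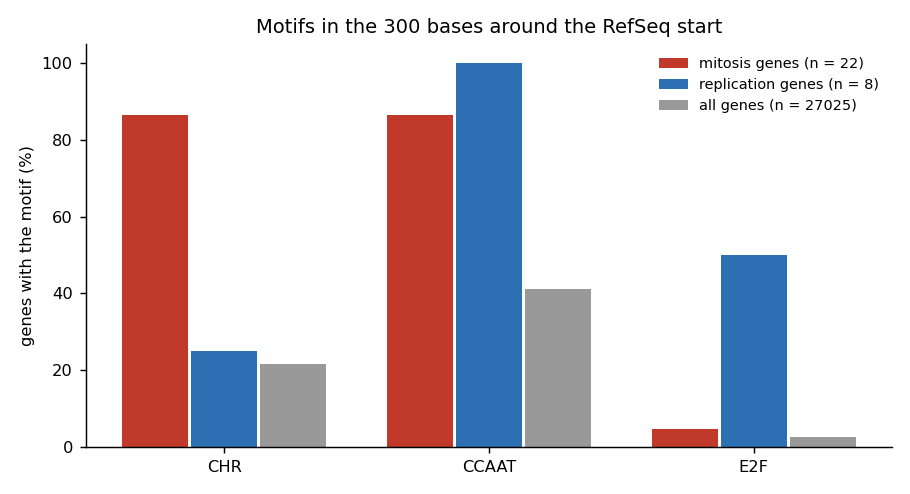
Share of promoters (percent, y axis) that hold a CHR, CCAAT or E2F match (x axis), for mitosis genes, replication genes and all 27025 RefSeq promoters. CHR matches stand at 86.4% in mitosis promoters and 25.0% in replication promoters, while E2F matches stand at 4.55% and 50.0%.

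Promoters of 3 mitosis genes and 2 replication genes are printed to show both layouts, with CHR, CCAAT and E2F matches of either strand in capitals and each sequence read along the gene. They are Cdc20 (chr4:118437294-118437593, minus strand), the activator of the anaphase-promoting complex, Ccnb2 (chr9:70421505-70421804, minus strand), a cyclin of Cdk1, Mki67 (chr7:135716330-135716629, minus strand), which coats mitotic chromosomes, Mcm5 (chr8:75109259-75109558, plus strand) and Mcm6 (chr1:128359656-128359955, minus strand), subunits of the replicative helicase.
Cdc20: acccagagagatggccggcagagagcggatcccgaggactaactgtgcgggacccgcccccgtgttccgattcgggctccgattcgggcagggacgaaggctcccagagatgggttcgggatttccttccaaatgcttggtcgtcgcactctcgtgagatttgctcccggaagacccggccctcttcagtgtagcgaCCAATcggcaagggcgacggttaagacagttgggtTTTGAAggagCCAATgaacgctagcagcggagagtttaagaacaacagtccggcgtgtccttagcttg
Ccnb2: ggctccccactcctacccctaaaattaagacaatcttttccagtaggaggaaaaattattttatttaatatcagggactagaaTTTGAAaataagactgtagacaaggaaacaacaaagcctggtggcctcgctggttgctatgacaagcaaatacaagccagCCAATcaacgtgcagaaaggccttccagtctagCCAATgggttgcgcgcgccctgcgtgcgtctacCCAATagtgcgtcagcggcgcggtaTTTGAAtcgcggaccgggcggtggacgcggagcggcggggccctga
Mki67: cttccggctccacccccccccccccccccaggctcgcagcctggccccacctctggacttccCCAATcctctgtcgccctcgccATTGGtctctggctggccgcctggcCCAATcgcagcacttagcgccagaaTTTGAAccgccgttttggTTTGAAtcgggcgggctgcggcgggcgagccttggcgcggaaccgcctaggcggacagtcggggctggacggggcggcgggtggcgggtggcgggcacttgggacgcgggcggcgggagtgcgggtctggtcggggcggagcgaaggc
Mcm5: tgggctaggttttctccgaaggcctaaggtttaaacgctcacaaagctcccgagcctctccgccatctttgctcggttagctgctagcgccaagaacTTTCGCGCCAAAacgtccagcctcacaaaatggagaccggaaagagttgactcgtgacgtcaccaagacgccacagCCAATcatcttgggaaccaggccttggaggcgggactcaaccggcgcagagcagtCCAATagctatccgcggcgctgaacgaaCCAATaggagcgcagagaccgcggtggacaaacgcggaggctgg
Mcm6: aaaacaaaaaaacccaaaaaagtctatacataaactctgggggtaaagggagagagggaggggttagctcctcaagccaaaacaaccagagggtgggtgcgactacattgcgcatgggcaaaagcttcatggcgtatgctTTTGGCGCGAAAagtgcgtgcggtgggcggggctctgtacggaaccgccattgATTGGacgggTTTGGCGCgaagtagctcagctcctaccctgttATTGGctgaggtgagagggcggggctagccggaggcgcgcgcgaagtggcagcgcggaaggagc

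The order of the 4 tissues was nearly the same for every gene. For 41 of the 42 genes the group means stood in the order PT, LungMets, NMG, NL, from high to low, and Pcna alone had LungMets above PT. Neighbours in that order were not equally separate. PT and LungMets overlapped for all 42 genes, LungMets lay above NMG without overlap for 5 genes, as did 15.3% of all genes, and NL lay below NMG without overlap for 39, as did 23.9% of all genes. The 5 genes of 42 are no larger a share than that of all genes. The mean level over the 29 mitosis genes was 7.60 to 9.15 in the LungMets arrays (median 8.68) and 8.81 to 9.44 in the PT arrays (median 8.97). It was 4.91 to 5.51 in the NL arrays and 7.08, 8.23 and 6.14 in NMG 1, 2 and 3. The 9 replication genes averaged 9.19 to 10.16 in LungMets, 9.82 to 10.38 in PT and 7.58 to 7.77 in NL, and 8.98, 9.78 and 8.31 in the 3 NMG arrays. In whole tissue, fewer cells of a type and less RNA per cell cannot be told apart.

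**Figure D2:**
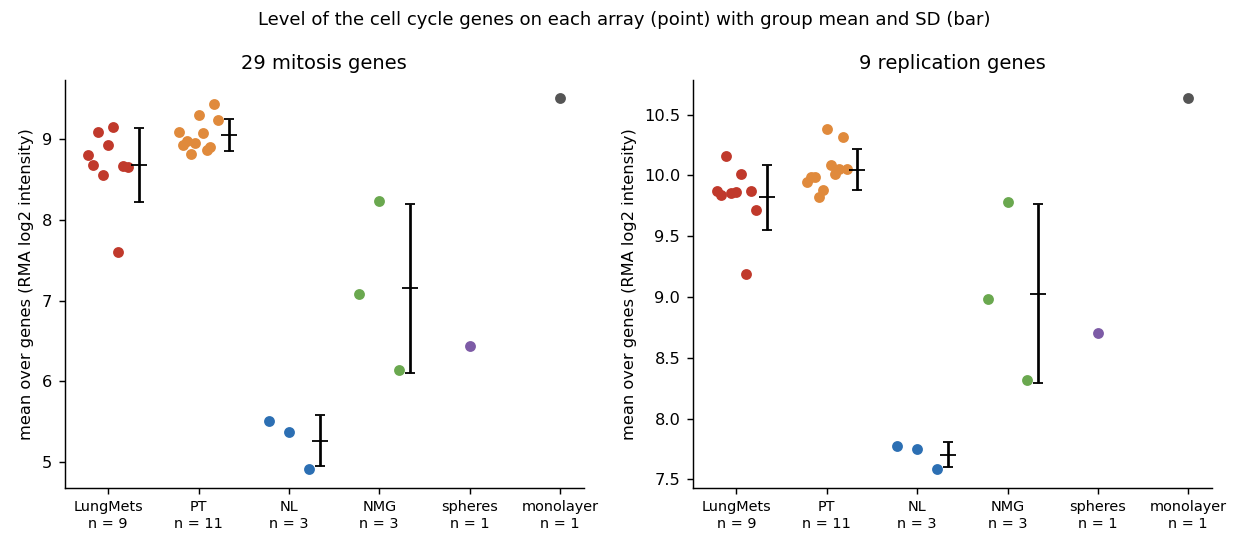
Mean log2 signal over the replication genes and over the mitosis genes (y axis) on each array (points), by group (x axis), with group mean and SD as bars. PT and LungMets lie highest among tissues, NL lies lowest, and the 3 NMG arrays are spread between 6.14 and 8.23 for the mitosis genes.

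The NMG arrays differed from each other more in these genes than in most others. The median SD between the 3 NMG arrays was 1.04 over the mitosis genes and 0.71 over the replication genes, against 0.13 over all genes. The same genes varied less among LungMets (median SD 0.52 for mitosis genes, against 0.23 over all genes), NL (0.30 against 0.16) and PT (0.25 against 0.23). NMG 2 held the highest NMG level for 42 of the 42 genes, as it did for 29.6% of all genes, and NMG 3 the lowest for 40, as it did for 38.1% of all genes. NMG 2 minus NMG 3 had a median of 2.06 over the mitosis genes and 0.00 over all genes. Marker lists of cell types averaged 11.48 to 12.05 (adipocytes), 11.20 to 11.28 (fibroblasts), 10.21 to 10.56 (epithelium), 9.28 to 9.42 (B lymphocytes), 8.65 to 9.10 (macrophages and neutrophils), 7.87 to 8.12 (endothelium), 7.10 to 7.43 (T and NK lymphocytes) and 4.67 to 4.82 (erythroid cells) over the 3 NMG arrays. The lung epithelium list spanned more, with 8.13 in NMG 1, 5.86 in NMG 2 and 5.13 in NMG 3. The part of any cell type in this spread was not tested.

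PT were compared with NMG to find how the primary tumor differed from the normal gland. All 42 genes rose in PT at an adjusted p under 0.05 (limma with Benjamini-Hochberg adjustment over all genes), where 26.7% of all genes rose. The median difference was 1.79 over the mitosis genes and 1.19 over the replication genes, against 0.09 over all genes. Every PT array lay above every NMG array for 34 of the 42 genes, as it did for 18.3% of all genes. The 8 genes that overlapped were Mcm3, Mcm4, Pcna, Rrm2, Tyms, Cdca8, Nusap1 and Pbk.

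Among mitosis genes the differences were largest for Kif20a, Bub1, Ube2c, Cdc20 and Birc5. Kif20a, a kinesin of the central spindle needed for cytokinesis, had 8.27, 8.52 and 9.26 (lowest, median and highest) in PT, against 5.41, 6.82 and 4.38 in NMG 1, 2 and 3. The groups did not overlap, and the difference was 3.07 (SE 0.36, 8.40-fold, adjusted p = 1.75e-07). Bub1, a kinase of the spindle checkpoint, had 9.10, 9.43 and 9.85 in PT, against 6.72, 8.07 and 5.57 in NMG. It rose by 2.67 (SE 0.39, adjusted p = 3.85e-06), again with all PT above all NMG. Ube2c, the ubiquitin-conjugating enzyme of the anaphase-promoting complex, rose by 2.66 (SE 0.43, 6.33-fold), Cdc20 by 2.51 (SE 0.26, 5.70-fold) and Birc5 (survivin), of the chromosomal passenger complex, by 2.50 (SE 0.31, 5.66-fold). Cdk1, the kinase that drives entry into mitosis, had 9.75, 10.05 and 10.55 in PT, against 7.76, 8.84 and 6.50 in NMG, and rose by 2.40 (SE 0.31, adjusted p = 6.20e-07). All PT arrays lay above NMG 2, the highest of the gland.

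Mki67 and Top2a, markers of proliferation in pathology, also rose. Mki67 had 10.50, 10.67 and 11.24 in PT, against 9.37, 10.34 and 8.40 in NMG, a difference of 1.37 (SE 0.28, adjusted p = 3.01e-04). Top2a, the topoisomerase that untangles sister chromatids, had 10.85, 11.13 and 11.42 in PT, against 9.16, 10.46 and 8.40 in NMG, a difference of 1.77 (SE 0.28, adjusted p = 1.48e-05). For both genes the lowest PT array lay just above NMG 2 and well above the other NMG arrays. The smallest differences among mitosis genes were those of Foxm1 and Dlgap5. Foxm1, the transcription factor of G2 and mitosis genes, had 6.64, 6.71 and 6.96 in PT, against 5.93, 6.20 and 5.64 in NMG, and rose by 0.85 (SE 0.12, adjusted p = 1.91e-06). Dlgap5, which stabilises spindle microtubules, had 6.39, 6.46 and 6.71 in PT, against 5.51, 6.13 and 5.18 in NMG, and rose by 0.88 (SE 0.14, adjusted p = 1.53e-05). Both had narrow ranges within PT, and neither overlapped NMG.

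Of the 9 replication genes 4 overlapped NMG. Mcm6 had 9.75, 9.93 and 10.52 in PT, against 8.30, 9.31 and 7.34 in NMG, a difference of 1.69 (SE 0.25, adjusted p = 6.28e-06). Mcm7 had 11.07, 11.24 and 12.03 in PT, against 10.17, 10.73 and 9.31 in NMG, a difference of 1.30 (SE 0.23, adjusted p = 4.30e-05). Both helicase subunits were separate between the groups. Pcna had 11.22, 11.44 and 11.63 in PT, against 10.67, 11.62 and 10.69 in NMG, so that NMG 2 reached the top of the PT range and the difference was 0.44 (SE 0.16, adjusted p = 0.0240). Mcm4 had 9.28, 9.63 and 10.24 in PT, against 9.12, 9.82 and 8.67 in NMG, with NMG 2 above the PT median and a difference of 0.45 (SE 0.18, adjusted p = 0.0469). These were the smallest differences of the 42 genes.

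The subunits of ribonucleotide reductase were unlike in their overlap. Rrm1, the large subunit, had 9.23, 9.38 and 9.91 in PT, against 8.12, 8.996 and 7.59 in NMG, and rose by 1.20 (SE 0.18, adjusted p = 6.14e-06) with no overlap. Rrm2, the small subunit whose amount limits the enzyme through the cycle, had 9.39, 9.73 and 10.10 in PT, against 8.71, 9.91 and 7.92 in NMG, and rose by 0.90 (SE 0.23, adjusted p = 0.00231). NMG 2 lay inside the PT range for Rrm2.

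All 4 genes of S phase entry and thymidylate synthesis rose in PT. The E cyclins, which activate Cdk2 at the entry to S phase, were lower in every NMG array than in every PT array. Ccne1 had 6.71, 6.99 and 8.16 in PT, against 5.98, 6.43 and 6.13 in NMG (difference 0.96, SE 0.24, adjusted p = 0.00206). Ccne2 had 6.38, 7.05 and 7.66 in PT, against 5.20, 6.22 and 4.60 in NMG (difference 1.69, SE 0.32, adjusted p = 1.13e-04). Cdc6, the loader of the helicase, had 6.59, 6.94 and 7.53 in PT, against 5.27, 6.34 and 4.25 in NMG, and rose by 1.71 (SE 0.33, adjusted p = 1.31e-04). Its groups were separate as well. Tyms had 4.07, 4.40 and 4.99 in PT, against 3.86, 4.10 and 3.58 in NMG, and rose by 0.63 (SE 0.21, adjusted p = 0.0147) with NMG 2 inside the PT range. Its probe set read near the low end of the signal scale in all groups.

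These differences depended on which gland arrays were used. Without NMG 3, 36 genes rose and the medians were 1.30 (mitosis) and 0.77 (replication), and Mcm3, Mcm4, Pcna, Rrm2, Tyms and Cdca8 no longer passed the test. Without NMG 2 the medians were 2.47 and 1.56. Without PT 5 and LungMets 9, 41 genes rose and Mcm4 did not. The smallest differences were the least stable. Mcm4 also lost its call without any of 9 PT arrays, without NMG 1 or without NMG 3, and Pcna lost its call without NMG 1 (0.28, adjusted p = 0.23). With the mean of its probe sets Cenpa differed by -0.044 (adjusted p = 0.84). With a fold change above 2 required as well, 34 genes passed, and Mcm3, Mcm4, Pcna, Rrm2, Ccne1, Tyms, Dlgap5 and Foxm1 did not. Other cell type markers moved with this comparison: the adipocyte list was 4.67 to 7.18 in PT and 11.48 to 12.05 in NMG, with 5 of 5 markers lower, and all 4 B lymphocyte and all 5 T and NK lymphocyte markers measured were lower in PT. Their part in the rise of the cycle genes was not tested.

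Other genes of the same pathways were counted as well. Of 20 replication fork and origin genes, 18 rose in PT (as did 26.7% of all genes, while 21.0% fell), Gins4, of the helicase complex, fell by 0.33, and Gins3 did not pass the test. Rfc3 and Rfc4, subunits of the loader of Pcna, had the largest differences, 1.93 and 1.86. Of 34 kinetochore, condensin and cytokinesis genes, all rose, from 0.33 for the checkpoint protein Bub3 and 0.38 for the phosphatase Cdc25b to 2.66 for the septum scaffold Anln and 3.02 for Ect2, the activator of RhoA in cytokinesis. Of 15 regulators of the E2F, Rb and MuvB families, 9 rose and 2 fell, and they included the MuvB subunits Lin9 (1.82) and Lin52 (-1.22), the repressor E2f7 (1.39) and the pocket protein Rbl2 (-0.51). Of 6 D cyclins and G1 kinases, Cdk6 (1.46) and Cdk4 (1.12) were among 3 that rose, while Ccnd2 fell by 2.63 and Ccnd3 by 0.62. Of the 5 inhibitors of cyclin-dependent kinases Cdkn1c fell by 2.21 and Cdkn2c by 1.23, and the others did not pass the test. All of these had an adjusted p under 0.05 in the same limma fit where a rise or fall is named.

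LungMets were compared with NL, the tissue in which they grew. All 42 genes rose in LungMets (limma, adjusted p under 0.05), where 23.8% of all genes rose, and 41 had every LungMets array above every NL array, against 16.7% of all genes. The median difference was 3.47 over mitosis genes and 1.92 over replication genes. Ube2c had 9.79, 11.17 and 12.03 in LungMets, against 6.57, 6.48 and 5.45 in NL 1, 2 and 3, a rise of 4.86 (SE 0.44, 29.0-fold, adjusted p = 4.75e-09). Birc5 had 8.39, 9.65 and 10.08 in LungMets, against 5.11, 4.85 and 4.25 in NL, a rise of 4.81 (SE 0.32, 28.0-fold, adjusted p = 3.31e-11). The lowest LungMets array stood far above the highest NL array for both genes.

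Cdk1 had 8.89, 9.78 and 10.14 in LungMets, against 5.92, 5.58 and 4.72 in NL, and rose by 4.35 (SE 0.31, 20.4-fold). Kif20a rose by 4.58 (SE 0.37) and Aurkb, the kinase of the chromosomal passenger complex, by 4.09 (SE 0.34). Mki67 had 9.27, 10.35 and 10.87 in LungMets, against 7.28, 6.78 and 6.27 in NL, and rose by 3.52 (SE 0.29, adjusted p = 9.63e-10). All LungMets lay above all NL for each of them. Within replication, Rrm2 had 9.21, 9.68 and 9.87 in LungMets, against 6.31, 6.67 and 6.32 in NL, and rose by 3.22 (SE 0.24, 9.30-fold), while Mcm6 rose by 3.17 (SE 0.26). Pcna had 11.13, 11.43 and 11.92 in LungMets, against 10.30, 10.36 and 10.09 in NL, and rose by 1.22 (SE 0.16). Pcna, Mcm4 (1.10) and Tyms (0.59, adjusted p = 0.0240) were at the low end together with Foxm1 (0.79). Tyms was the gene whose groups overlapped, and it did not pass the test without NL 2 (0.42, adjusted p = 0.18), without NL 3 (0.54, adjusted p = 0.097) or after quantile normalisation once more (0.50, adjusted p = 0.062). Tyms and Foxm1 were under a 2-fold difference with the probe sets used. The other 3 Foxm1 probe sets had means of 6.40, 6.14 and 2.90 in LungMets, against 5.04, 4.81 and 2.81 in NL. The size of the Foxm1 difference thus depends on the probe set. Lung cell markers moved the other way: the lung epithelium list averaged 6.93 to 12.19 in LungMets and 13.32 to 13.36 in NL with 3 of 7 markers lower, and the endothelium list 6.50 to 9.52 in LungMets and 10.94 to 11.02 in NL with 6 of 6 lower. Their part in the rise was not tested.

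**Figure D3:**
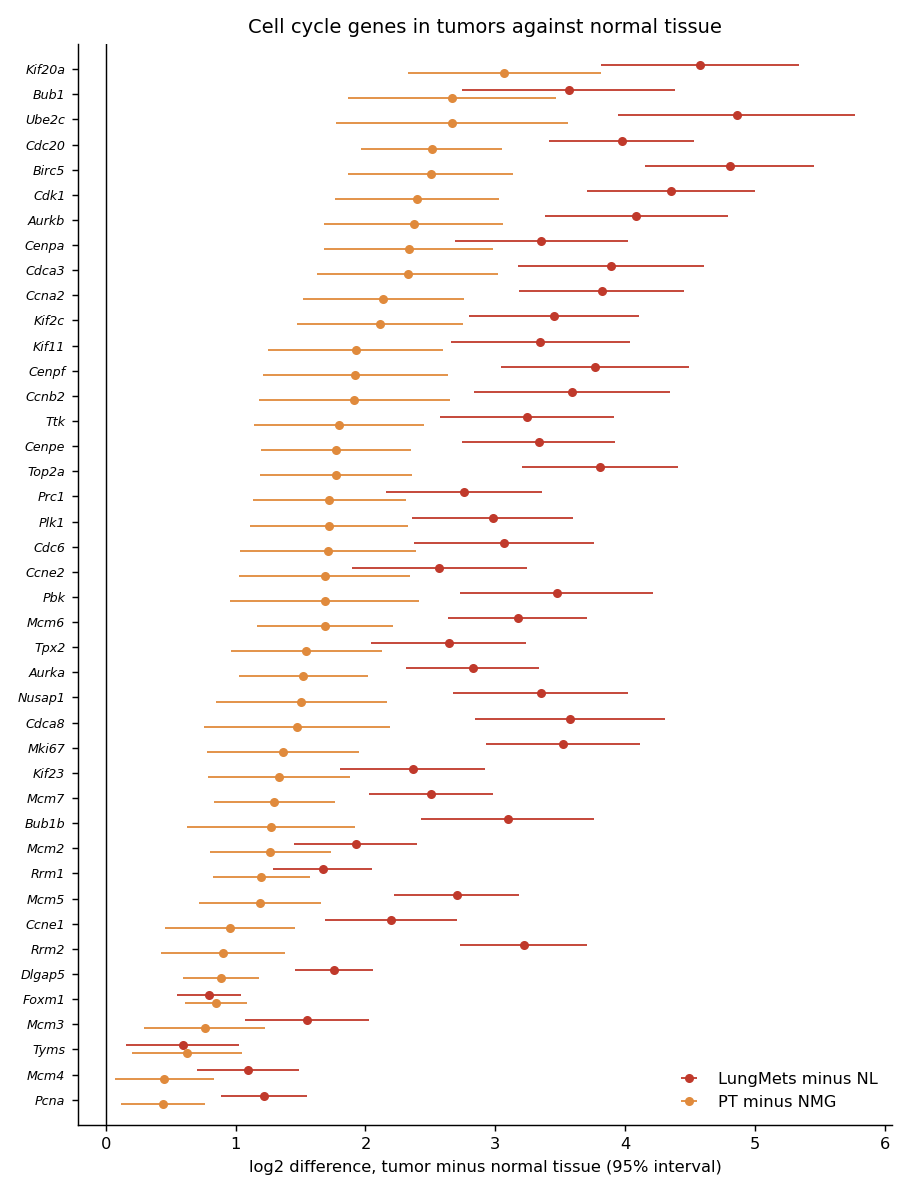
Log2 difference with its 95% interval (x axis) for each of the 42 genes, LungMets minus NL and PT minus NMG. All 42 differences are above 0 in both comparisons, and most mitosis genes lie further from 0 in the lung comparison.

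The difference between tumor and normal tissue was itself compared between the sites, as LungMets minus NL less PT minus NMG. It was larger in lung for 30 of the 42 genes (limma, adjusted p under 0.05), where it was larger for 10.1% of all genes. The median over mitosis genes was 1.56 and over replication genes 0.79. For each gene the same value is LungMets minus PT less NL minus NMG. The mitosis medians of those differences were -0.38 and -2.03, so the value is not separate from the lower level of NL. NL and NMG each lie on a label date of their own, so site and date cannot be told apart here. Rrm2 had the largest value, 2.31 (SE 0.33, adjusted p = 1.31e-05), followed by Birc5 at 2.30 (SE 0.44), Ube2c at 2.20 (SE 0.62), Mki67 at 2.16 (SE 0.40), Cdca8, of the chromosomal passenger complex, at 2.11 (SE 0.50) and Top2a at 2.04 (SE 0.41). Foxm1 (-0.06, SE 0.17) and Tyms (-0.03, SE 0.30) were near 0 and did not pass the test. The Foxm1 value comes from 1 of its 4 probe sets, and its size depends on the probe set. The count was 15 without NMG 2, 38 without NMG 3, 19 without NL 3 and 26 without PT 5 and LungMets 9.

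The normal tissues were set against each other to place them in the order of levels. NL was lower than NMG for 39 of the 42 genes (limma, adjusted p under 0.05), where 14.5% of all genes were lower, with medians of -2.03 over mitosis genes and -1.07 over replication genes. Every NL array lay below every NMG array for 39 genes, against 23.9% of all genes. Mki67 had 7.28, 6.78 and 6.27 in NL, against 9.37, 10.34 and 8.40 in NMG, and was lower in NL by 2.60 on the log2 scale (a difference of -2.60, SE 0.35, adjusted p = 3.08e-06). Rrm2 had 6.31, 6.67 and 6.32 in NL, against 8.71, 9.91 and 7.92 in NMG, a difference of -2.41 (SE 0.29). Birc5 differed by -2.72 (SE 0.39) and Cdca8 by -2.49 (SE 0.44). Tyms, Bub1 (-1.24, adjusted p = 0.0586) and Foxm1 (-0.10, adjusted p = 0.70) did not pass the test. With the probe set of largest variance Foxm1 passed it and was lower in NL. The Foxm1 probe sets not used had means of 5.04, 4.81 and 2.81 in NL, against 5.60, 5.39 and 2.85 in NMG. The cell types of the tissues moved as well: the lung epithelium list averaged 13.32 to 13.36 in NL and 5.13 to 8.13 in NMG with 7 of 7 markers higher, the endothelium list 10.94 to 11.02 in NL and 7.87 to 8.12 in NMG with 6 of 6 higher, the adipocyte list 6.83 to 8.10 in NL and 11.48 to 12.05 in NMG with 5 of 5 lower, and the B lymphocyte list 6.38 to 6.72 in NL and 9.28 to 9.42 in NMG with 3 of 4 lower. Their part in the difference was not tested. Each of these tissues lies on a label date of its own, so tissue and date cannot be told apart.

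LungMets were also compared with NMG, the normal tissue at the site of injection. Of the 42 genes, 39 rose (limma, adjusted p under 0.05), where 23.1% of all genes rose, and Mcm3, Mcm4 and Tyms did not. The medians were 1.44 over mitosis genes and 0.85 over replication genes. Only 5 genes had every LungMets array above every NMG array, against 15.3% of all genes. Ube2c rose by 2.56 (SE 0.44), Kif20a by 2.47 (SE 0.37), Bub1 by 2.33 (SE 0.40) and Cdc20 by 2.29 (SE 0.27). Without NMG 3 the count was 24. Markers of other cell types moved with this comparison: the lung epithelium list averaged 6.93 to 12.19 in LungMets and 5.13 to 8.13 in NMG with 7 of 7 markers higher, the adipocyte list 4.60 to 7.45 in LungMets and 11.48 to 12.05 in NMG with 5 of 5 lower, and the B lymphocyte list 4.49 to 7.50 in LungMets and 9.28 to 9.42 in NMG with 4 of 4 lower. Of the T and NK lymphocyte markers 4 of 5 were lower. Their part in the rise was not tested.

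LungMets were then compared with PT. Nearly every gene had a difference slightly below 0, and few differences passed the test. 41 of the 42 genes had a difference below 0, as did 53.8% of all genes, and the medians were -0.38 over mitosis genes and -0.26 over replication genes, against -0.02 over all genes. By limma with Benjamini-Hochberg adjustment, none of the 42 genes rose in LungMets (9.03% of all genes rose) and 2 fell (6.13% of all genes fell), so the share that fell was near that of all genes. At an unadjusted p under 0.05, 0 genes of the set were higher (14.1% of all genes were) and 15 lower (14.0% of all genes). A linear model without moderation of the variances called 0 higher and 1 lower. For every gene the LungMets and PT arrays overlapped, and among all genes only 0.066% had every LungMets array above every PT array and 0.044% every LungMets array below.

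The 2 genes were Cenpa and Tyms. Cenpa, the histone H3 variant that marks centromeres, had 8.07, 9.52 and 9.80 in LungMets, against 9.50, 10.04 and 10.63 in PT, a difference of -0.65 (SE 0.22, adjusted p = 0.0451, limma). Tyms had 3.57, 3.96 and 4.55 in LungMets, against 4.07, 4.40 and 4.99 in PT, a difference of -0.46 (SE 0.14, adjusted p = 0.0289). These levels are near the low end of the signal scale. The Tyms probe sets not used had means of 3.23, 3.05 and 3.00 in LungMets, against 3.33, 3.29 and 2.99 in PT. For Cenpa 3 of the 9 LungMets arrays lay below the lowest PT array, and for Tyms 6 of the 9 did, with the others inside the PT range. Both calls depended on the processing. With the mean of all its probe sets Cenpa differed by -0.16 (adjusted p = 0.34) and Tyms by -0.19 (adjusted p = 0.035), and with the replicate number as a block the adjusted p was 0.11 for Cenpa and 0.077 for Tyms. Leaving out 1 array ended the call of Cenpa for 15 of the 20 arrays and that of Tyms for 6. Kif20a had 6.83, 8.13 and 8.92 in LungMets, against 8.27, 8.52 and 9.26 in PT, a difference of -0.60 (SE 0.25, adjusted p = 0.11). Kif11, the kinesin that separates spindle poles, had 5.93, 7.21 and 7.69 in LungMets, against 7.13, 7.52 and 8.48 in PT, a difference of -0.59 (SE 0.23, adjusted p = 0.0820). Neither passed the test. With 1 array left out, the number of genes that fell was 0 without LungMets 1, LungMets 4, PT 1, PT 6 or PT 10, 1 without any of 10 other arrays, 2 without LungMets 9, PT 2 or PT 4, 3 without PT 5 and 4 without LungMets 3. At the other end Pcna (0.03, SE 0.11), Mcm4 (-0.07, SE 0.13) and Rrm2 (-0.10, SE 0.16) differed by less than their errors.

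**Figure D4:**
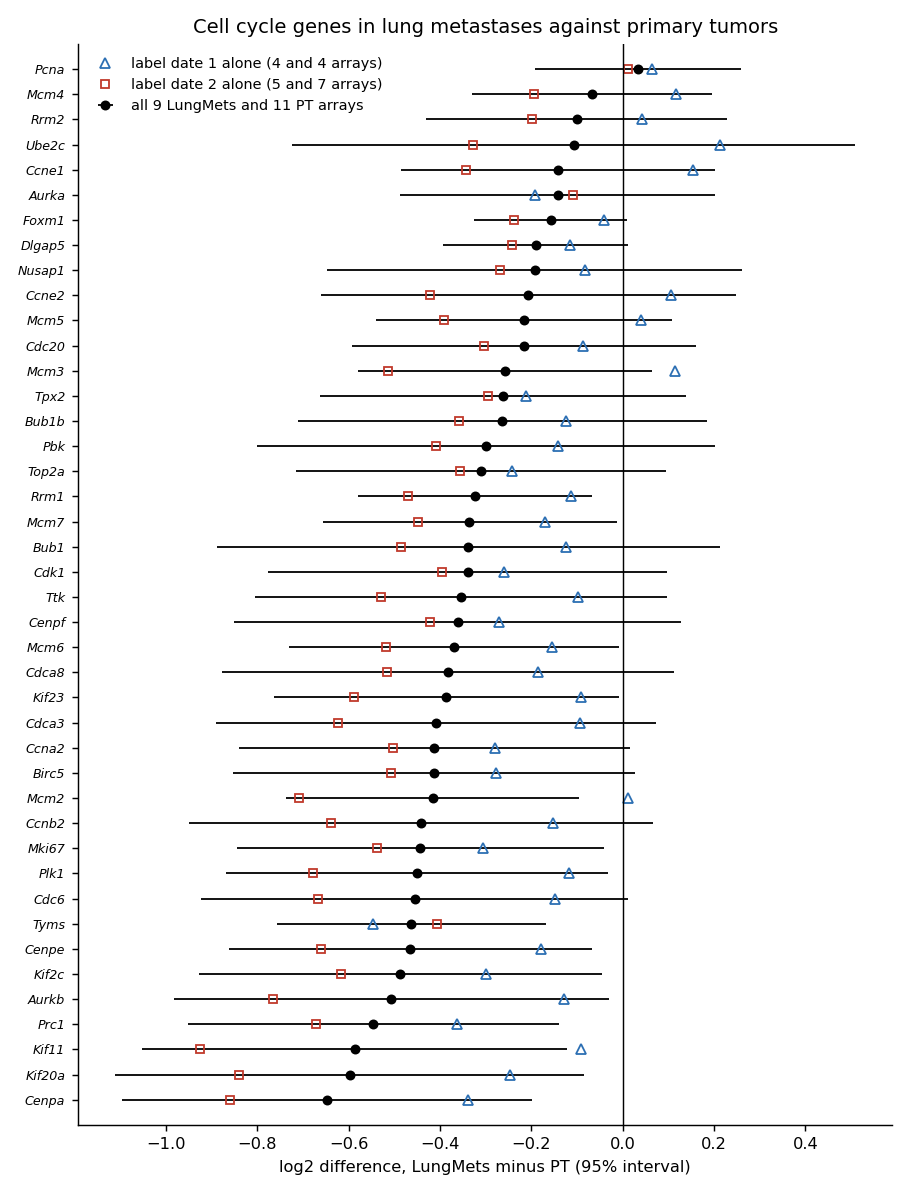
Log2 difference LungMets minus PT with its 95% interval (x axis) for each of the 42 genes, with open symbols for label date 1 alone and label date 2 alone. The values over all arrays run from -0.65 for Cenpa to 0.03 for Pcna, and those of Cenpa and Tyms had an adjusted p under 0.05.

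The shift was smaller without 1 array. LungMets 7 had the lowest LungMets level for 39 of the 42 genes, as it did for 20.9% of all genes, and its mitosis genes averaged 7.60 where the LungMets median was 8.68. The same array had the highest LungMets levels of lung epithelium (12.19), endothelium (9.52), macrophage and neutrophil (9.38) and erythroid (7.13) markers, and the part of these cells was not tested. Without LungMets 7 the medians were -0.22 over mitosis genes and -0.13 over replication genes, and Cenpa differed by -0.48 (adjusted p = 0.10). All 7 lung epithelium markers and all 6 endothelium markers were higher in LungMets than in PT at an adjusted p under 0.05, with list means of 6.93 to 12.19 in LungMets and 4.74 to 11.50 in PT for lung epithelium, and their part was not tested. Without PT 5 and LungMets 9, 3 genes fell, with Prc1, a bundler of spindle midzone microtubules, added.

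The label dates gave unlike values. Within label date 1 (4 LungMets and 4 PT) the medians were -0.15 over mitosis genes and 0.04 over replication genes, and within label date 2 (5 LungMets and 7 PT) they were -0.51 and -0.45. With all arrays of a date, no gene of the set passed the limma test within either date, and at an unadjusted p under 0.05 the set had 0 higher and 6 lower genes on date 1, where 12.0% of all genes were higher and 9.67% lower, and 0 higher and 16 lower on date 2, where 7.95% of all genes were higher and 6.72% lower. Without PT 5 and LungMets 9, a setting chosen within this date after seeing the data, Mcm2 (-0.84, adjusted p = 0.022) and Prc1 (-0.89, adjusted p = 0.018) fell on date 2. The mean level of the mitosis genes was 8.78 ± 0.23 (SD, n = 4) in LungMets and 8.95 ± 0.11 (SD, n = 4) in PT on date 1, and 8.60 ± 0.60 (SD, n = 5) in LungMets and 9.11 ± 0.22 (SD, n = 7) in PT on date 2. With the date as a block, 4 genes fell, namely Cenpa, Tyms, Rrm1 and Prc1. With each array centred on its median gene, 17 of the 42 genes fell, while 3767 of all genes fell and 1257 rose.

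Of the 80 pathway genes outside the set, 7 fell in LungMets and 1 rose, where 6.13% of all genes fell and 9.03% rose, so the share that fell was near that of all genes. The 8 are named because they passed the test. Pola1, the catalytic subunit of the polymerase that extends primers (-0.44), Rfc3 (-0.45) and the condensin subunit Ncapd2 (-0.65) fell. Among regulators E2f3 (-0.48) and the MuvB subunit Lin37 (-0.38) fell, as did Cdk2 (-0.39) and the inhibitor Cdkn2c (-0.34). The inhibitor Cdkn1c rose by 1.33. All 8 had an adjusted p under 0.05 in the limma fit.

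The cell line grown as 3D spheres and as a monolayer was compared last. Each culture had 1 array, so the values are given with no test and no replicate check. All 42 genes were lower in spheres. 38 were at least 2-fold lower, as were 5.21% of all genes, 33 were at least 4-fold lower, as were 238 of all 18193 genes, and 20 were at least 8-fold lower, as were 78 of all genes. The median difference was -3.24 over the 29 mitosis genes and -1.88 over the 9 replication genes, against 0.03 over all genes. The mean level of the mitosis genes was 6.44 in spheres and 9.50 in monolayer, and that of the replication genes 8.70 in spheres and 10.63 in monolayer.

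Of the 29 mitosis genes, 28 were at least 4-fold lower in spheres. The exception was Foxm1, with 6.71 in spheres and 7.22 in monolayer. Its 3 other probe sets read 5.11 in spheres and 7.40 in monolayer, 6.19 in spheres and 7.25 in monolayer, and 2.91 in spheres and 3.07 in monolayer. The first of these was more than 4-fold lower in spheres, so the exception depends on the probe set. Cdca3, a partner in the destruction of Wee1, had 6.43 in spheres and 10.45 in monolayer (-4.02), and Ccna2 7.18 in spheres and 11.17 in monolayer (-3.99). Mki67 had 6.80 in spheres and 10.53 in monolayer, and Cdk1 8.25 in spheres and 10.45 in monolayer. Among replication genes, 7 of 9 were at least 2-fold lower and 4 at least 4-fold. Rrm2 had the largest difference of the 42 genes, with 6.70 in spheres and 11.21 in monolayer (-4.51, 22.8-fold lower), and Mcm5 had 7.59 in spheres and 10.65 in monolayer (-3.06). Other helicase subunits differed by less. Mcm7 had 10.69 in spheres and 11.21 in monolayer (-0.52), Mcm6 9.34 in spheres and 10.46 in monolayer (-1.12), and Mcm2 8.88 in spheres and 10.19 in monolayer (-1.31). Pcna had 11.15 in spheres and 11.74 in monolayer (-0.59), and Tyms 3.22 in spheres and 3.62 in monolayer (-0.40). Other Tyms probe sets read 3.20 in spheres and 4.82 in monolayer, 3.38 in spheres and 3.34 in monolayer, and 3.15 in spheres and 3.02 in monolayer. The size and sign of the Tyms difference thus depend on the probe set.

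**Figure D5:**
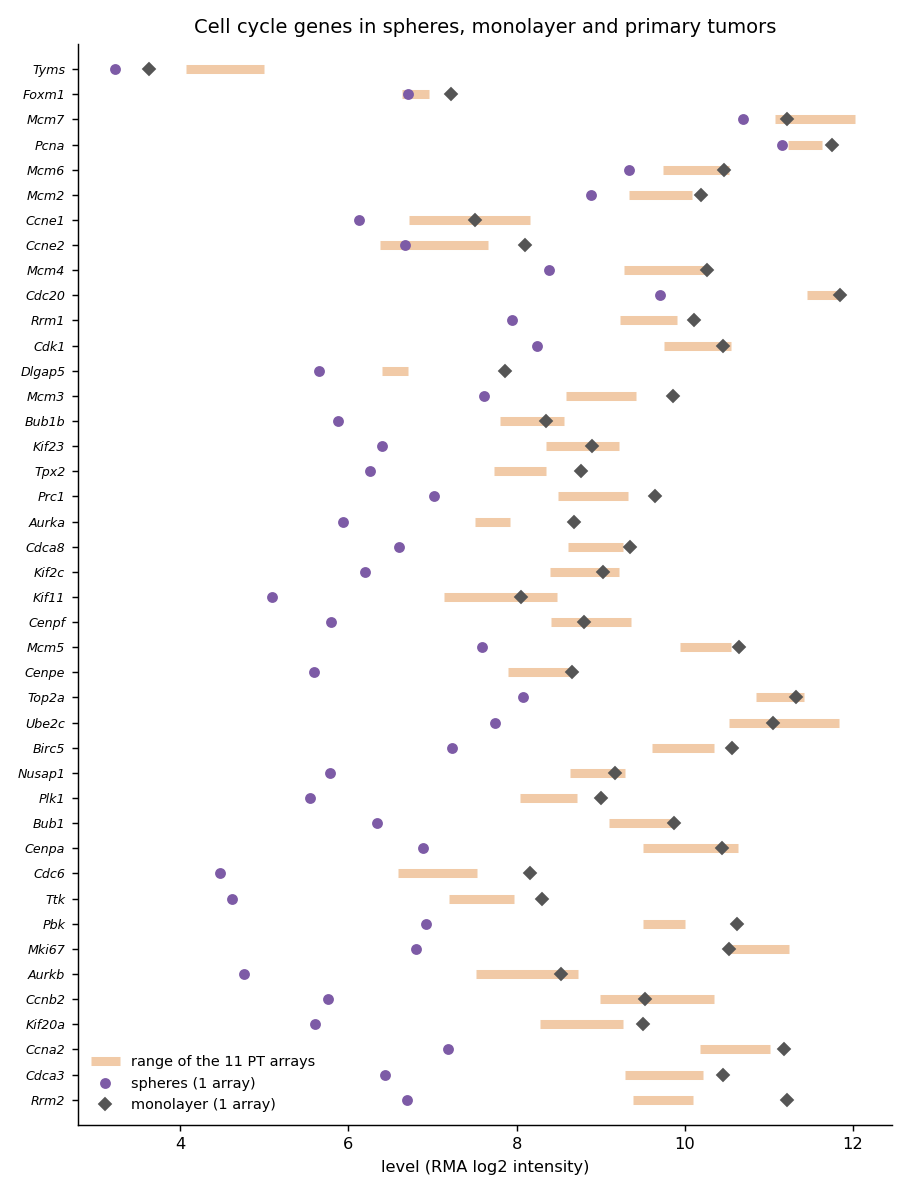
Log2 signal (x axis) of each of the 42 genes in spheres and in monolayer (1 array each), with the range of the 11 PT arrays. The sphere value is the lower one for all 42 genes, and it lies below the PT range for 40 of them.

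The cultures were also set beside the tumor and gland arrays. Spheres lay below every PT array for 40 of the 42 genes, as they did for 18.3% of all genes, and inside the PT range for Ccne2 and Foxm1. Monolayer lay above every PT array for 24 of the 42 genes, as it did for 26.5% of all genes, below every PT array for Tyms and inside the range for 17. The place of Tyms depends on the probe set, as another of its probe sets read 4.82 in monolayer and a mean of 3.29 in PT. Against the 3 NMG arrays, spheres lay within the range for 25 genes, as they did for 2231 of all 18193 genes. They lay below it for 14 (32.5% of all genes lay below) and above it for 3 (55.2% of all genes lay above). The share below was near that of all genes. The NMG range was wide for the mitosis genes (median SD 1.04, against 0.13 over all genes), which makes a place within it easier to reach.

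Among the regulators outside the set, the inhibitor Cdkn1a (p21) had 9.67 in spheres and 7.55 in monolayer, a difference of 2.12 (4.35-fold, where 2.91% of all genes were at least 2-fold higher). Cdkn2c (p18) differed by -1.93. The E2F family repressors E2f8 (-2.80) and E2f7 (-2.52) and the pocket protein Rbl1 (-2.24) were lower in spheres, and none of the 6 D cyclins and G1 kinases differed by 2-fold. Of the fork genes Uhrf1, which copies DNA methylation marks, differed by -3.56, Mcm10 by -2.49 and Gmnn (geminin), the inhibitor of relicensing, by -2.41. Cep55, of the abscission machinery, differed by -4.03, while Wee1, the kinase that inhibits Cdk1, differed by 0.45.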

How the data were processed

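Whole-tissue or cell RNA from 28 samples was measured on Affymetrix arrays. The values deposited by the authors are log2 intensities normalised by RMA, and the labels name Partek Genomics Suite 6.6. Of 45101 probe sets, 64 control probe sets, 932 that list several genes and 9211 with no gene listed were left out, and each of 18193 genes was read from its highest probe set over the 26 tissue arrays. limma 3.58.1 (R 4.3.3; Python 3.11.15 for the rest) fitted 1 mean per group to the 26 tissue arrays, tested two-sided contrasts, adjusted the p-values of all genes by Benjamini-Hochberg and called those under 0.05. The fit was tested on simulated data. Genes shown sample by sample are the highest and lowest PT minus NMG differences of each group with Mki67, Top2a, Cdk1, the E cyclins, Pcna and both reductase subunits, and for other comparisons the ends of the list. Members and lists were chosen with earlier results of these data known. Arrays carry no read depth, so their number limits the precision. Replicate numbers were not taken to pair the samples. Alternatives were other probe set rules, filters, normalisations, blocks and left-out arrays.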

Additional observations from a re-analysis of the deposited data

Results flagged for a closer look

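LungMets 7 stood apart from the other 8 LungMets arrays by Dixon's criterion in 22 of the 42 genes and in both group means, always as the lowest array. Chance alone gives about 1 such case in 20 sets of values, and the genes are not independent of each other. The mean level was 9.19 over the replication genes and 7.60 over the mitosis genes. Among genes of replication and S phase entry the levels in LungMets 7 were 7.77 for Mcm3, 8.79 for Mcm6, 6.03 for Ccne1, 5.39 for Ccne2 and 4.95 for Cdc6. Among kinases, cyclins and checkpoint genes they were 8.89 for Cdk1, 8.98 for Ccna2, 7.99 for Ccnb2, 6.46 for Plk1, 7.44 for Bub1, 8.68 for Pbk and 10.69 for Cdc20. Among genes of chromosomes and the centromere they were 9.27 for Mki67, 9.84 for Top2a, 8.07 for Cenpa, 6.72 for Cenpe and 7.17 for Cenpf. Among genes of the passenger complex, the midzone and mitotic exit they were 8.39 for Birc5, 7.23 for Cdca8, 7.66 for Cdca3, 7.31 for Kif23 and 7.54 for Prc1.

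The difference between tumor and normal tissue was larger in lung than in mammary gland for 30 of the 42 genes by the limma test of that difference (adjusted p under 0.05). The largest values were 2.31 for Rrm2, 2.30 for Birc5, 2.20 for Ube2c, 2.16 for Mki67, 2.11 for Cdca8 and 2.04 for Top2a. These values are not separate from the lower level of NL than of NMG, and the label dates of NL and NMG differ.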

How the results depend on the processing

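Gene directions held under nearly all alternatives: of 1047 gene values for PT against NMG, 1016 kept direction and side of the threshold, 30 no longer passed it and 1 reversed. Among differences that had passed the test, the reversals were those of Cenpa with the mean of its probe sets. They were -0.044 in PT against NMG (adjusted p = 0.84, limma) and -0.21 in LungMets against NMG (adjusted p = 0.32). The other Cenpa probe sets do not follow the one used. Differences that had not passed also changed sign: 21 of 1551 gene values for LungMets against PT, 10 of 1467 for the difference between sites and 1 of 711 for NL against NMG. For LungMets against PT, 2 of the 42 genes fell over all arrays. The number was 4 with the probe set of largest variance, 17 with arrays centred on their median and 6 with only these groups. It was 1 with genes above the median level, a filter that left Tyms out. With the label date as a block it was 4 (also 4 without PT 5 and LungMets 9). It was 0 in each label date alone, 0 with a fold change above 2 as well, and 0 to 4 leaving out 1 array. Calls over all genes, up or down, ranged from 0 to 5024 over these settings. The counts therefore do not stand against the same share of all genes. Replicate numbers were not taken to pair the samples. Of 9 LungMets and PT pairs with the same number, 7 had r above 0.1 (from -0.23 to 0.48). Only 1 of the 9 LungMets arrays correlated best with the PT array of its own number. The labels do not name the animal, so this check cannot settle whether the numbers pair. With the replicate number as a block 0 of the 42 genes fell. The block left the other comparisons within 1.5 times.

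Leaving out 1 array gave 36 to 42 genes and a mitosis median of 1.30 to 2.47 for PT against NMG, 24 to 41 genes and 0.90 to 2.11 for LungMets against NMG, and 15 to 38 genes and 1.00 to 2.08 for the difference between sites. With the mean of probe sets the mitosis median was 2.61 for LungMets against NL and 0.97 for the difference between sites. The replication median for LungMets against PT was 0.041 in label date 1 alone. Over all genes, calls for LungMets against PT numbered 2758, with 5024 after centring, 1392 in date 1, 0 in date 2 (2669 at an unadjusted p under 0.05), 1080 in date 2 without PT 5 and LungMets 9, 4156 with array weights and 564 with a fold change above 2 as well. Genes above the median level gave 5341 (PT against NMG), 5299 (LungMets against NL), 4261 (LungMets against NMG), 3228 (NL against NMG) and 2024 (difference between sites), and a fold change above 2 as well gave 3137, 2961, 2422, 2738 and 2056 in the same order. The label date settings without PT 5 and LungMets 9 were chosen after seeing the data. The cause of these changes was not tested. Some settings hold fewer genes or arrays.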
